A study of Mus musculus with 240 samples.

Results

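The 93 protein-coding potassium channel genes examined here were the rows whose symbol begins with Kcn, without Kcnj8, out of 34623 genes and 22003 protein-coding genes in the table of counts. Potassium channels let potassium leave or enter a cell along its gradient and so set the resting potential of glia and end the spikes of neurons. They fall into families by build. The set held 40 subunits of voltage-gated channels, which open on depolarization, 14 inward rectifiers, which carry the resting conductance of many glia, and 14 two-pore channels, which carry leak current. It also held 8 calcium- or sodium-activated channels and 17 accessory proteins, which bind the pore subunits and change their gating or transport. Cells of the oligodendrocyte lineage are known to express inward rectifiers and voltage-gated channels of the Kcna family, and neurons express many members of every family.

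The study asked how oligodendrocyte precursor cells (OPCs) lacking Trp53 and Nf1 change on the way to a glioma in mice. Libraries were made from polyadenylated RNA of tdTpositive cells, labelled as brain OPCs and cut out of tissue sections by laser capture microdissection. For bulk libraries, cut from 10 µm sections and amplified linearly, 37 animals (18 female, 19 male) were used: 5 wild-type and 7 Trp53-/- Nf1-/- animals (CKO) at 12 days after the start of tamoxifen treatment (dpi), 5 wild-type and 7 CKO animals at 90 dpi, and 6 wild-type animals and 7 Trp53-/- Nf1-/- animals with tumours at 150 dpi. Tamoxifen was common to all 6 groups. The promoter that drove the recombinase and the age of the mice are not given in the sources used here. Small libraries came from CKO animals alone, from 8 µm sections with PCR amplification and 92 spike-in RNAs: 56 libraries of 10 cells and 40 of pooled cells split before amplification at each of 12 and 90 dpi, called 10-cell and pool-and-split libraries here. The 2 kinds of protocol differ, so levels are not compared between bulk and small libraries.

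The 48 bulk libraries held 93700 to 23200000 counts (median 10000000, rounded to 3 digits), and libraries of 1 animal were added. Levels are counts per 1000000 counts of the library (CPM), scaled by TMM, and levels between genes are CPM per kb of exon. Markers were set beside the cell label before any result. The 14 OPC markers summed to 2910 to 5770 CPM outside the tumours and to 5310 to 15200 CPM in the 7 tumours, and none was at 0 in a whole group. The 12 neuron markers summed to 7190 to 16900 CPM outside the tumours and to 310 to 1550 CPM in the tumours, so the 2 ranges did not overlap, and in every group without a tumour the neuron sum was above the OPC sum. The 12 microglia markers summed to 145 to 316 CPM outside the tumours and to 553 to 1780 CPM in them. Astrocyte markers ranged from 2630 to 7430 CPM outside and from 1440 to 3930 CPM in the tumours. The 12 oligodendrocyte markers summed to 1670 to 5090 CPM outside the tumours and to 514 to 1810 CPM in them, so these ranges overlapped. In bulk samples, fewer cells of a type and less RNA per cell cannot be told apart.

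The promoter sequences of 4 members on which the comparisons turn are shown first: Kcnj4 and Kcnh1 are the 2 largest falls with 1 entry in the promoter table and an expression above the median, and Kcnj10 and Kcnn4 are the glial rectifier and a channel counted in no wild-type animal at 150 dpi. Each is the 250 bases before the RefSeq start, read 5′ to 3′ on the gene's strand in build GRCm38.p6. Capitals mark the GC box GGGCGG or its complement CCGCCC.
Kcnj4: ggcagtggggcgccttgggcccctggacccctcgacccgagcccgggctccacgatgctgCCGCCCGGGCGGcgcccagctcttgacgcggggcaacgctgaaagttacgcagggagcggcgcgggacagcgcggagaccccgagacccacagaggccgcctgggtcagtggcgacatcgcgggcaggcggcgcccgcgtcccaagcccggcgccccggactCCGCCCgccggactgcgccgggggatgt
Kcnh1: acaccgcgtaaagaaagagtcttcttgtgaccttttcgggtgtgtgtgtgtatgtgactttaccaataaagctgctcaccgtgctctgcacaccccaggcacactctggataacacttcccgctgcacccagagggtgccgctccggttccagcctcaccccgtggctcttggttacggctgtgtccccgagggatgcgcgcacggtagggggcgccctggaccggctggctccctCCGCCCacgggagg
Kcnj10: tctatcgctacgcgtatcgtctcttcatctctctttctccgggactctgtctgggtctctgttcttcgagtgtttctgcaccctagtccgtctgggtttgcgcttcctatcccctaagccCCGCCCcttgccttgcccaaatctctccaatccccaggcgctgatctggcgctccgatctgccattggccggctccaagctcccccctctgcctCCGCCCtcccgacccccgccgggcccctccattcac
Kcnn4: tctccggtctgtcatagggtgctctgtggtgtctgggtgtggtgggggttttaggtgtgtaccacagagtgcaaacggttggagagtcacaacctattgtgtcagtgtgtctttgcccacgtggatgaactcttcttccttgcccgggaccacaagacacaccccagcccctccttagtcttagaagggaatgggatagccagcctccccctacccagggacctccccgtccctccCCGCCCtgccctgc
Kcnj4 (chr15:79505242-79505491, minus strand) held 3 GC boxes, 2 of them side by side, and 35 CG dinucleotides. Kcnh1 (chr1:192190527-192190776, plus strand) held 1 GC box and 17 CG dinucleotides. Kcnj10 (chr1:172340960-172341209, plus strand) held 2 GC boxes and 17 CG dinucleotides. Kcnn4 (chr7:24370013-24370262, plus strand) held 1 GC box and 6 CG dinucleotides, so it was the least CG-rich of the 4. The E-box CAGCTG, which reads the same on both strands, and the letters TATAAA on either strand were in none of these windows. Of 93 promoters of the 68 members in the table, 45.2% held a GC box, 23.7% the E-box and 3.23% TATAAA. The shares over all 32851 promoters of the table were 32.7%, 13% and 12.4%. Promoters of members lower in tumours held a GC box in 48.8% and an E-box in 20.9% of 43 cases, and those of members higher in tumours in 41.7% and 41.7% of 12. These matches are descriptions of letters, not of bound sites.

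In the tumours most potassium channel genes were lower than in wild-type cells of the same time. The summed level of the 93 members was 1627 to 2477 CPM in the 7 tumours (median 2282) and 5071 to 8416 CPM in the 30 other animals, with no overlap. Of the 80 members that passed the filter on low counts, 46 were lower, 9 were higher and 25 were not called against wild type at 150 dpi, by edgeR's quasi-likelihood test with Benjamini-Hochberg adjustment over all 16349 genes tested. The test called 46.2% of all genes, 24.3% higher and 21.9% lower. The median log2 change was -1.39 over the tested members and 0.0626 over all tested genes. The tumour and wild-type animals did not overlap for 37 members, against 15.7% of all genes, and of these 37, 34 were called lower, against 8.94% of all genes, and 3 higher, against 6.71%. The neuron markers moved with these members: 10 of 12 were called lower, with a median log2 change of -3.52, while 11 of 14 OPC markers (median 1.41) and 11 of 12 microglia markers (median 2.25) were called higher. Oligodendrocyte markers fell too, with 7 of 12 called lower and 1 higher (median -1.49). Of 12 astrocyte markers 3 were lower and 6 higher, of 8 pericyte markers 4 and 1, and of 10 endothelial markers 2 and 0. Since the neuron level separated the tumours from every other animal, it and the tumour group cannot be told apart. With the neuron level as a covariate, added after seeing the data, 15 members were called, 13 lower and 2 higher. The 2 higher were Kcnip4 (3.36) and Kcnc2 (3.26), and Kcnip4 was not among the 9 rises without the covariate. That fit called 6.88% of all genes, against 46.2% without the covariate. Among the members described below, Kcnh3, Kcnh1, Kcnb2, Kcnf1 and Kcnj4 were still called lower in that fit. The calls of Kcna2, Kcna5, Kcna6, Kcnd2, Kcnh2, Kcnip3, Kcnj3, Kcnj6, Kcnj9, Kcnj10, Kcnk1, Kcnk2, Kcnk6, Kcnma1, Kcnn4 and Kcns1 were lost, and Kcna1 was called lower there.

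**Figure D1:**
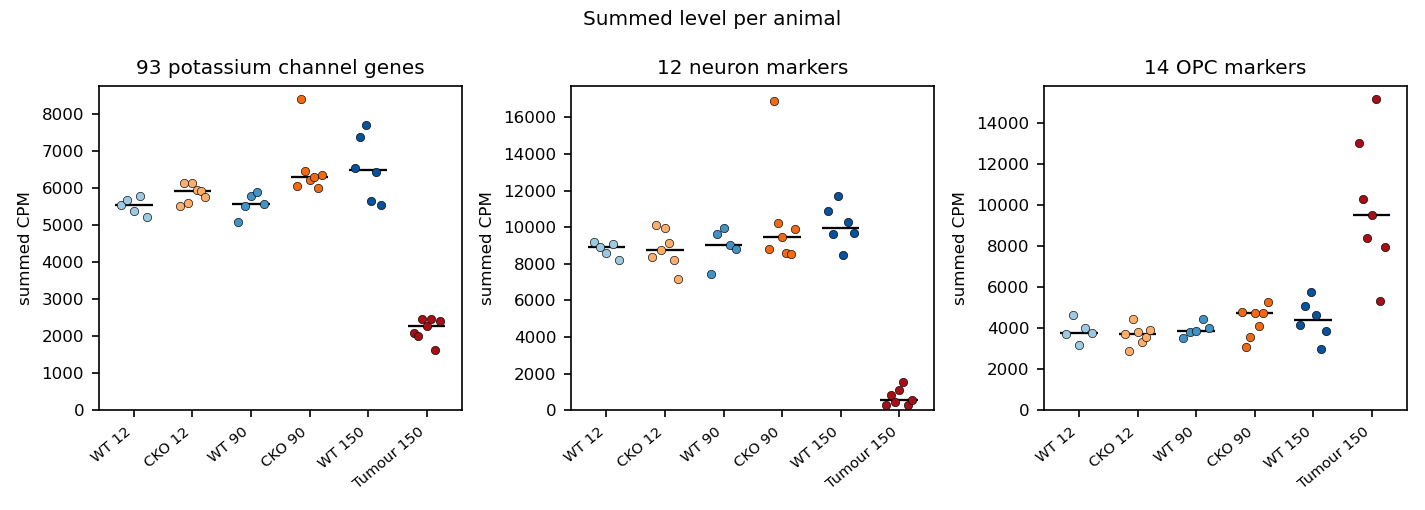
Summed level in CPM of the 93 members, the 12 neuron markers and the 14 OPC markers, 1 point for each of 37 animals in 6 groups. The 7 tumours lie between 1627 and 2477 CPM for the members, below all other animals, as they do for the neuron markers, while their OPC sums lie between 5310 and 15200 CPM.

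The 13 members under the filter were Kcnk4, Kcnk7, Kcnk16, Kcnk18, Kcnj1, Kcna7, Kcna10, Kcng3, Kcnv2, Kcne1, Kcne2, Kcne3 and Kcnmb3. None reached more than 6.97 CPM in any animal, the value of Kcng3. Kcna7 had no count in the bulk libraries.

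**Figure D2:**
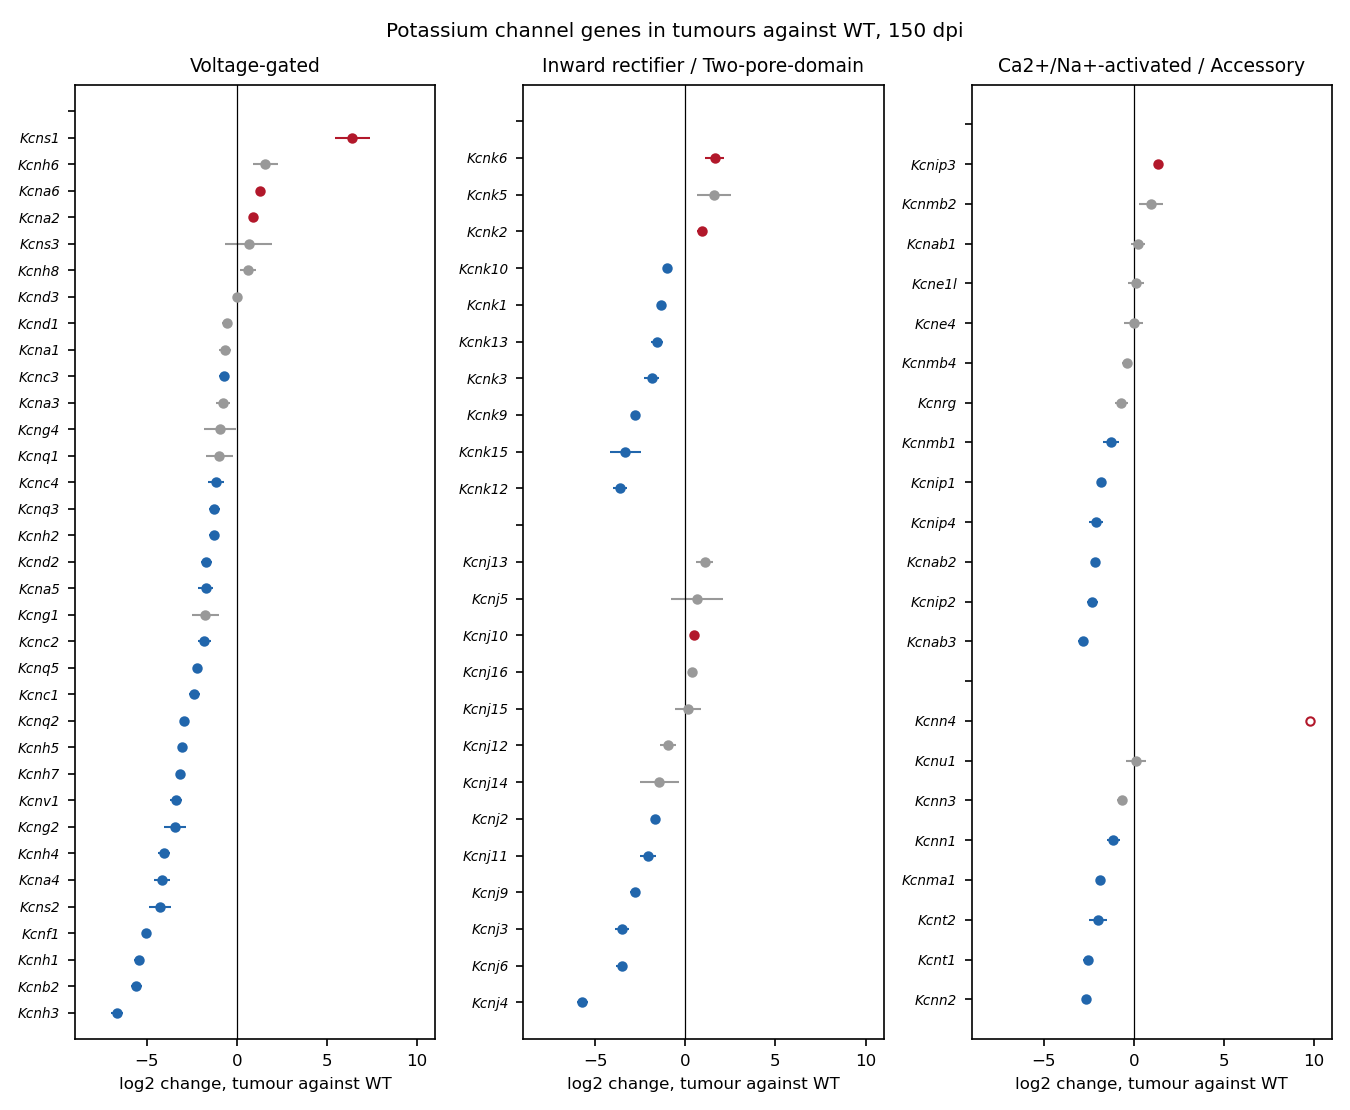
Log2 change with its standard error of 78 of the 80 tested members, tumours against wild type at 150 dpi, in 3 panels by role, with red for higher, blue for lower and grey for not called. Most points of the voltage-gated panel are blue, and the open symbol of Kcnn4 has no error because its wild-type counts were all 0.

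Voltage-gated subunits made up 22 of the 46 falls: 22 of 36 tested were lower, 4 were higher and 10 were not called, with a median log2 change of -1.71. The largest fall was that of Kcnh3, a subunit of the ether-à-go-go family known from forebrain neurons. Kcnh3 ranged from 52.3 to 78.9 CPM (median 71.9) in wild type at 12 dpi and from 54.1 to 103 CPM (median 86.1) in CKO at 12 dpi. At 90 dpi it ranged from 37.9 to 91.8 CPM (median 69.6) in wild type and from 64.5 to 113 CPM (median 81.3) in CKO. At 150 dpi it ranged from 60.6 to 119 CPM (median 74.1) in wild type and from 0 to 1.33 CPM (median 0.769) in the tumours. The 5 groups without a tumour overlapped one another and none of them reached the tumours. The log2 change against wild type was -6.68 ± 0.337 (SE, 7 against 6 animals, adjusted p = 3.6e-18).

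Kcnh1, of the same family and whose promoter is shown above, fell from 54.4 to 103 CPM (median 67.4) in wild type to 0.718 to 2.75 CPM (median 1.29) in the tumours, a log2 change of -5.44 ± 0.257 (adjusted p = 6.5e-19). Kcnb2 is a pore subunit of the slow delayed rectifiers of neurons. It ranged from 550.3 to 1163 CPM (median 777.6) in wild type and from 3.74 to 33.0 CPM (median 19.9) in the tumours. The 2 groups were far apart, with a log2 change of -5.58 ± 0.309 (adjusted p = 3.9e-17). Kcnf1 forms no channel alone and joins Kcnb subunits. It ranged from 212 to 315 CPM (median 261) in wild type and from 3.51 to 14.7 CPM (median 7.31) in the tumours, a log2 change of -5.02 ± 0.216 (adjusted p = 4.9e-20).

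Kcnd2 and Kcnd3 carry the fast inactivating current of dendrites, and they differed in outcome. Kcnd2 ranged from 199 to 838 CPM (median 279) in wild type and from 36.8 to 211 CPM (median 83.6) in the tumours, so the ranges overlapped at their edges, with a log2 change of -1.70 ± 0.305 (adjusted p = 1.9e-05). Kcnd3 ranged from 114 to 186 CPM (median 163) in wild type and from 45.8 to 317 CPM (median 149) in the tumours, with a log2 difference of -0.02 ± 0.214 (adjusted p = 0.958). The tumours lay on both sides of the wild-type range of Kcnd3, and its sign turned with the scaling: it was 0.12 with RLE size factors. Kcnh2, the ERG subunit, ranged from 11.3 to 38.5 CPM (median 27.1) in wild type and from 3.46 to 21.9 CPM (median 7.70) in the tumours, a log2 change of -1.28 ± 0.288 (adjusted p = 3.8e-04).

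The Kcna subunits, the Shaker family of axons and of cultured OPCs, did not move as 1 block. Kcna6 rose from 20.6 to 45.8 CPM (median 28.4) in wild type to 26.5 to 118 CPM (median 89.4) in the tumours, a log2 change of 1.30 ± 0.262 (adjusted p = 9.4e-05). Kcna2 ranged from 90.7 to 143 CPM (median 114) in wild type and from 109 to 284 CPM (median 248) in the tumours, a log2 change of 0.88 ± 0.22 (adjusted p = 0.00116). For Kcna6, 2 of the 7 tumours lay within the wild-type range, and for Kcna2 1 did. Kcna5 fell from 1.78 to 8.12 CPM (median 4.51) to 0.424 to 2.42 CPM (median 1.67), a log2 change of -1.73 ± 0.418 (adjusted p = 8.5e-04). Kcna3 ranged from 2.25 to 9.26 CPM in wild type and from 0.769 to 5.59 CPM in the tumours, with a log2 difference of -0.78 ± 0.373 that missed the threshold (adjusted p = 0.0878). Kcna1 ranged from 76.7 to 136 CPM (median 104) in wild type and from 13.7 to 187 CPM (median 35.6) in the tumours, with a log2 difference of -0.69 ± 0.336 (adjusted p = 0.0926). A pair of tumours held the high values of Kcna1, 187 and 121 CPM. Without the first the log2 change was -1.24 (adjusted p = 2.3e-04), and without the second it was -0.90 (adjusted p = 0.0326), so the call rested on single tumours.

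Kcns1, which like Kcnf1 modifies Kcnb channels, went the other way. It had 1 count over the 6 wild-type animals at 150 dpi and 542 counts over the tumours. The ratio of the group totals, each divided by its scaled library size, was 138, with an exact 95% interval from 24.6 to 5460 that covers counting error only. Per animal it was at most 0.290 CPM in wild type and 1.94 to 5.32 CPM (median 2.53) in the tumours, a fitted log2 change of 6.41 ± 0.994 (adjusted p = 1.7e-06). Wild-type animals at 12 dpi reached 1.22 CPM, still below every tumour. Reads of related subunits can be divided by the authors' estimation of counts, which matters most for members as low as Kcns1.

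**Figure D3:**
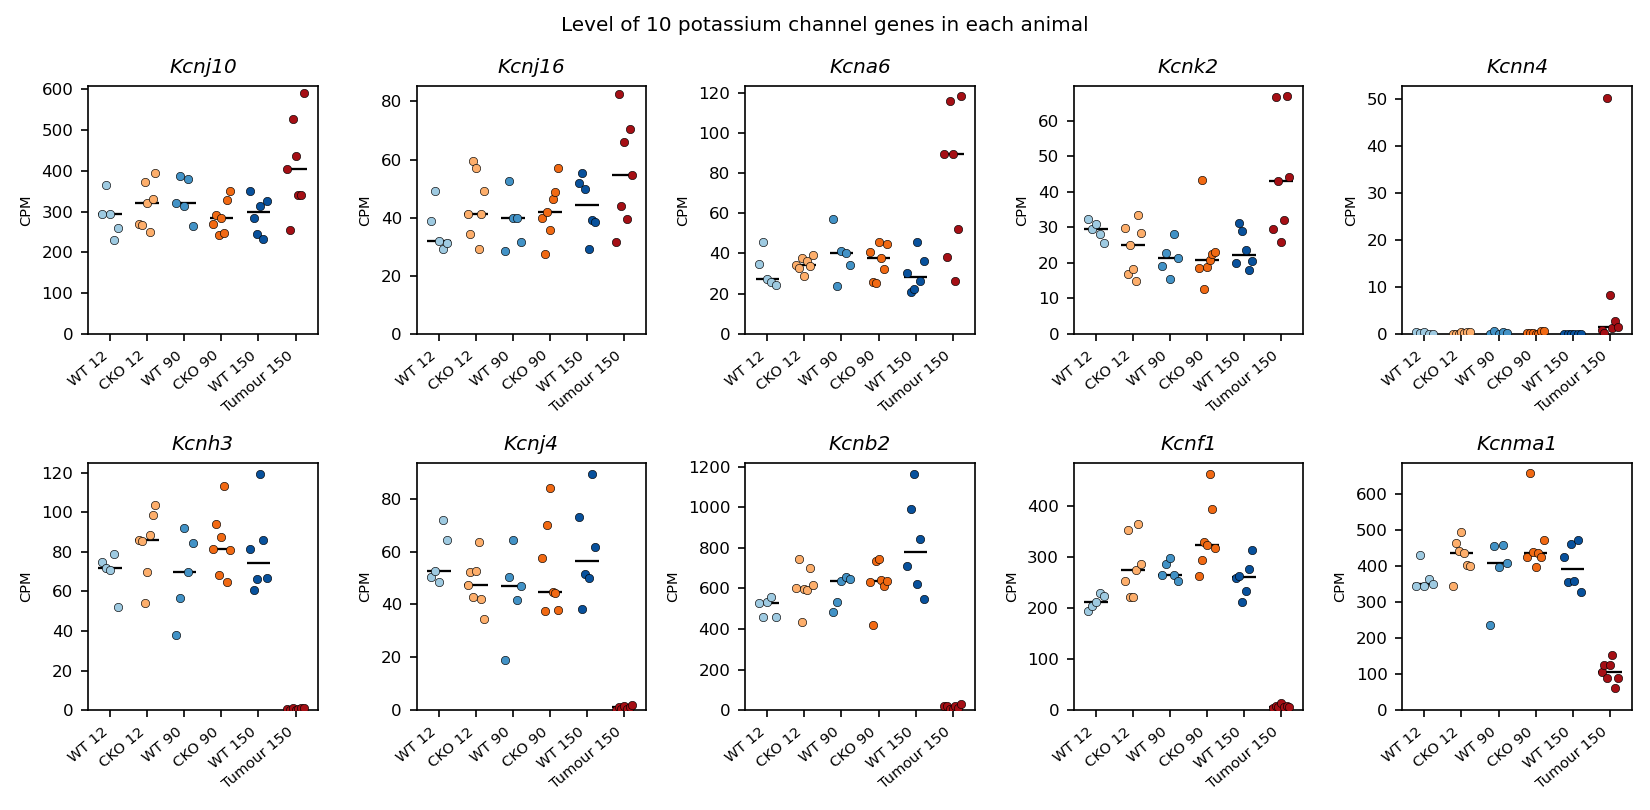
Level in CPM of 10 members in each of 37 animals over the 6 groups, with a line at the median of each group. Kcnh3, Kcnj4, Kcnb2, Kcnf1 and Kcnma1 are far lower in the 7 tumours than in the 5 other groups, Kcna6 and Kcnk2 reach higher levels in tumours, and 1 tumour alone holds Kcnn4 above 8.22 CPM.

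Among inward rectifiers, 6 of 13 tested fell, 1 rose and 6 were not called, with a median log2 change of -1.44. The member that rose was Kcnj10, the main potassium-buffering channel of astrocytes and oligodendrocyte-lineage cells. Kcnj10 ranged from 231 to 364 CPM (median 294) in wild type and from 249 to 396 CPM (median 320) in CKO at 12 dpi, and from 264 to 389 CPM (median 322) and from 242 to 351 CPM (median 284) at 90 dpi. At 150 dpi it ranged from 232 to 351 CPM (median 298) in wild type and from 256 to 591 CPM (median 406) in the tumours. The ranges overlapped, and the log2 change was 0.50 ± 0.162 (adjusted p = 0.0103). It was 0.55 with an adjusted p of 0.0712 when only the compared groups were fitted. Kcnj16, which joins Kcnj10 in glia, ranged from 29.3 to 55.4 CPM (median 44.5) in wild type and from 31.7 to 82.6 CPM (median 54.7) in the tumours, with a log2 difference of 0.35 ± 0.21 (adjusted p = 0.181). With RLE size factors, which shift the median of all genes from 0.0626 to 0.217, it passed the threshold (0.49, adjusted p = 0.0458).

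Kcnj4, a strong rectifier of forebrain neurons, ranged from 38.3 to 89.2 CPM (median 56.6) in wild type and from 0.220 to 1.86 CPM (median 1.31) in the tumours. The groups were far apart, with a log2 change of -5.72 ± 0.304 (adjusted p = 1.2e-17). Kcnj3, a rectifier opened by G proteins and chosen after its values were seen, ranged from 209 to 1108 CPM (median 566.7) in wild type and from 14.2 to 159 CPM (median 40.0) in the tumours, a log2 change of -3.50 ± 0.38 (adjusted p = 1.4e-09). Its G protein-gated relatives Kcnj6 (-3.54) and Kcnj9 (-2.78) fell as well, all 3 without overlap of the groups. These relatives were also chosen after their values were seen.

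Of the 10 two-pore channels tested, 7 fell, 2 rose and 1 was not called, with a median log2 change of -1.45. Kcnk1, a weakly conducting leak channel of glia and neurons, ranged from 48.2 to 109 CPM (median 91.8) in wild type and from 14.5 to 41.9 CPM (median 35.8) in the tumours, a log2 change of -1.33 ± 0.188 (adjusted p = 3e-07). The 2 members that rose were Kcnk2, a channel opened by membrane stretch, and Kcnk6, a relative of Kcnk1. Kcnk2 ranged from 18.0 to 31.3 CPM (median 22.1) in wild type and from 26.0 to 67.1 CPM (median 42.9) in the tumours, a log2 change of 0.91 ± 0.247 (adjusted p = 0.00259). Kcnk6 ranged from 0.340 to 3.68 CPM (median 1.15) and from 1.21 to 6.88 CPM (median 4.72), a log2 change of 1.62 ± 0.526 (adjusted p = 0.0112). Both rises came with overlapping groups.

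Of the 8 calcium- or sodium-activated channels, 5 fell, 1 rose and 2 were not called, with a median log2 change of -1.51. Kcnma1, the large-conductance channel opened by calcium and voltage, ranged from 329.1 to 471.7 CPM (median 392.2) in wild type and from 62.5 to 155 CPM (median 107) in the tumours, a log2 change of -1.89 ± 0.152 (adjusted p = 8.5e-13). Kcnn4, the intermediate-conductance channel known from lymphocytes and microglia, had no count in the 6 wild-type animals at 150 dpi and ranged from 0.135 to 50.2 CPM (median 1.44) in the tumours. Against a floor of 3 counts over the wild-type group (0.0802 CPM), the tumour mean of 9.27 CPM was at least 116-fold higher. A single tumour held the value of 50.2 CPM, and without it the bound was at least 30.6-fold higher. Wild-type animals of earlier times held Kcnn4 at up to 0.335 CPM (12 dpi) and 0.499 CPM (90 dpi), above the lowest tumour. The bound therefore holds against wild type of 150 dpi only. The microglia sum given above was also higher in the tumours, and its part in the Kcnn4 result was not tested.

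Of the 13 accessory proteins tested, 6 fell, 1 rose and 6 were not called, with a median log2 change of -0.701. The member that rose was Kcnip3, a calcium-binding partner of Kcnd subunits that also binds DNA. Kcnip3 ranged from 56.0 to 105 CPM (median 70.6) in wild type and from 62.3 to 120 CPM (median 93.5) in CKO at 12 dpi. At 90 dpi it ranged from 37.9 to 101 CPM (median 61.7) in wild type and from 103 to 197 CPM (median 136) in CKO. At 150 dpi it ranged from 41.4 to 88.3 CPM (median 68.8) in wild type and from 117 to 219 CPM (median 178) in the tumours. The tumours lay above every wild-type animal of 150 dpi, with a log2 change of 1.33 ± 0.207 (adjusted p = 1.9e-06). The CKO animals of 90 dpi lay above the wild-type animals of 90 dpi as well.

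Against CKO cells of 90 dpi, the other comparison the tumours allow, 49 of 80 tested members fell, 8 rose and 23 were not called. This test called 49.1% of all genes, 26.4% higher and 22.6% lower. The median log2 change was -1.53 over the members and 0.121 over all genes, and 37 members did not overlap, against 17.2% of all genes. Of these, 36 were called lower, against 10.5% of all genes, and 1, Kcns1, was called higher, against 6.75%. All 12 neuron markers were called lower here, as were 8 of 12 oligodendrocyte markers, of which 0 were called higher. The 2 comparisons share the tumour animals, so their values are set side by side only. The log2 changes against CKO were -6.73 for Kcnh3, -5.53 for Kcnj4, -5.41 for Kcnf1, -5.33 for Kcnh1 and -5.28 for Kcnb2. The rises against CKO were 0.52 for Kcnj10 (adjusted p = 0.00499), 1.09 for Kcna6 (adjusted p = 3.5e-04), 0.94 for Kcnk2 (adjusted p = 8.9e-04) and 1.29 for Kcnk6 (adjusted p = 0.0233). Kcnn4 was 0 to 0.674 CPM in CKO at 90 dpi, and its log2 change of 4.76 ± 0.98 (adjusted p = 1.6e-04) was 2.98 without the tumour at 50.2 CPM. Kcna3 fell against CKO (-1.25, adjusted p = 0.00382), whereas its difference from wild type missed the threshold. Kcna2 and Kcnip3 did not pass against CKO: Kcna2 differed by 0.11 (adjusted p = 0.681) and Kcnip3 by 0.37 (adjusted p = 0.112). The Kcnip3 result depended on the setting: it passed with DESeq2 (0.54, adjusted p = 0.013) and with RLE size factors (0.54, adjusted p = 0.0186). Kcnk5, an acid-sensing leak channel chosen after its values were seen, was 0 to 0.249 CPM in CKO and 0 to 3.84 CPM in the tumours, a log2 change of 4.22 (adjusted p = 6.4e-04). It was not called against wild type at 150 dpi, where it ranged from 0 to 1.61 CPM. In CKO at 12 dpi it reached 1.44 CPM, so its rise holds against CKO of 90 dpi only.

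Whether the effect of genotype differed between 150 and 90 dpi was tested directly, as the tumour-minus-wild-type difference less the CKO-minus-wild-type difference. It was lower for 43 members, higher for 5 and not called for 32, where 30% of all genes were called (14.2% higher, 15.8% lower). The members for which it was higher were Kcna6, Kcns1, Kcnj10, Kcnk6 and Kcnn4. With RLE size factors the share of higher calls among all called genes moved from 47.2% to 57.3%, and 7 members were higher and 42 lower. Kcnip3 was not among the called members.

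Before tumours formed, no member was called between genotypes. At 12 dpi edgeR called 0 of 80 tested members between CKO and wild type, where 0.0183% of all genes were called, DESeq2 called 0, and 1 member had an unadjusted p under 0.05, Kcne1l (-0.96, unadjusted p = 0.0368, adjusted p = 0.999). The median log2 difference of the members was 0.167, against 0.0295 over all genes. Kcnh8 was the 1 member whose groups did not overlap, against 1.33% of all genes. At 90 dpi edgeR again called 0 of 80, where 0.0489% of all genes were called (0.0245% higher, 0.0245% lower), DESeq2 called 0, and 8 members had an unadjusted p under 0.05, 7 of them higher in CKO. Kcnip3 had the lowest adjusted p (0.408), with a log2 difference of 0.83 ± 0.222 (unadjusted p = 6.5e-04), higher in 7 of 7 CKO animals than in any of 5 wild-type animals. Groups of Kcnk3, Kcnd2 and Kcnip3 did not overlap at 90 dpi, against 0.758% of all genes. These members other than Kcnd2 and Kcnip3 were named because of their values. Shares of all genes at an unadjusted p under 0.05 were not counted. The numbers of members under it therefore have no background and show no trend.

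Between 12 and 90 dpi no member was called in either genotype when all 37 animals were fitted together. Between CKO at 90 and 12 dpi edgeR and DESeq2 each called 0 of 80 members, edgeR called 0% of all genes, and 5 members were higher at an unadjusted p under 0.05, among them Kcnip3 (0.57, unadjusted p = 0.00589, adjusted p = 1). The groups overlapped for every member there, where 0.0979% of all genes did not overlap. Between wild type at 90 and 12 dpi each called 0 of 80, where edgeR called 0.00612% of all genes, and 2 members, Kcns1 (-1.94) and Kcnk12 (-1.05), were lower at an unadjusted p under 0.05. Kcnj3, Kcna5, Kcnk12 and Kcnf1 did not overlap between the wild-type times, against 2.96% of all genes. Kcnj3 was 365 to 557 CPM at 12 dpi and 250.4 to 313 CPM at 90 dpi in wild type, and it was called lower (-0.81, adjusted p = 0.00333) when only these 2 groups were fitted. That fit called 1 of 69 tested members and 2.08% of all genes. For the members at an unadjusted p under 0.05, the share of all genes was not counted here either.

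Per kb of exon, the order of the members also differed between wild type and tumours. In wild type at 150 dpi the highest mean levels were those of Kcnj3 at 118.4, Kcnd2 at 76.4, Kcna4 at 59.2, Kcnf1 at 54.3, Kcnj10 at 54.0 and Kcnb2 at 53.7 CPM per kb. In the tumours Kcnj10 came first at 76.5 CPM per kb, followed by Kcnip3 at 49.0, Kcnd2 at 23.1, Kcna2 at 17.7, Kcnd3 at 16.7 and Kcnk1 at 14.8. Kcnj3, first in wild type, is not among the first 6 in tumours, and whether neighbours in these orders differ was not tested.

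Other genes of potassium handling were counted from a list of 29, of which 28 were tested. Against wild type, 18 fell and 5 rose in the tumours with a median log2 change of -1.35, and against CKO 19 fell and 5 rose with a median of -1.60. The tests called 46.2% and 49.1% of all genes, and 10 and 12 of the 12 neuron markers were called lower in the same comparisons. Among the largest falls against wild type were Lrrc26 (-3.54), an accessory protein of the Kcnma1 channel, and the pacemaker channel Hcn4 (-3.29). The largest rises were the potassium-chloride cotransporters Slc12a7 (3.12, from 2.29 to 21.3 CPM) and Slc12a4 (2.24), and Fxyd7 (2.09, adjusted p = 0.0273), a sodium pump regulator. None of the list was called between CKO and wild type at 12 or 90 dpi.

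In the small libraries a 10-cell library held a count above 0 for a median of 29.5 members at 12 dpi (range 7 to 54) and 39 at 90 dpi (16 to 53). Pool-and-split libraries held 32.5 (16 to 48) and 36 (24 to 48). Total counts, rounded to 3 digits, were 1640000 to 6490000 in 10-cell and 1910000 to 5160000 in pool-and-split libraries, and the median number of all genes detected was 7550 and 10109.5 in 10-cell and 8690.5 and 8739 in pool-and-split libraries at 12 and 90 dpi. The neuron sum was above the OPC sum in the medians of these libraries too, 3750 against 648 CPM in 10-cell libraries at 12 dpi and 2890 against 893 CPM at 90 dpi. The part of neuron RNA in the values of the members below was not tested.

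Kcnj10 was counted in 56 of 56 10-cell libraries at each time, in 40 of 40 pool-and-split libraries at 12 dpi and in 39 of 40 at 90 dpi. Kcnk1 was counted in 85.7% (exact 95% interval 73.8 to 93.6) and 98.2% (90.4 to 100) of 10-cell libraries at 12 and 90 dpi. These were also the members with the highest mean per kb in 10-cell libraries at 12 dpi, 44.9 CPM per kb for Kcnk1 and 40.9 for Kcnj10, followed by Kcnip2 at 37.2 and Kcnj3 at 33.8. At 90 dpi Kcnj10 came first at 43.5 CPM per kb, then Kcnab3 at 40.8, Kcnk1 at 37.6 and Kcnip2 at 34.1. Kcna1 was counted in 30.4% (18.8 to 44.1) and 67.9% (54.0 to 79.7) of 10-cell libraries, and in 37.5% and 35% of pool-and-split libraries. Kcnk6 was counted in 30.4% and 66.1% of 10-cell libraries and in 30% and 65% of pool-and-split libraries. More genes of any kind were detected in 10-cell libraries at 90 dpi, and these shares were not adjusted for that. Kcna3 was counted in none of 56 or 40 libraries, which allows a share of up to 6.38% or 8.81% at this depth by the exact interval. Intervals cover counting error only.

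**Figure D4:**
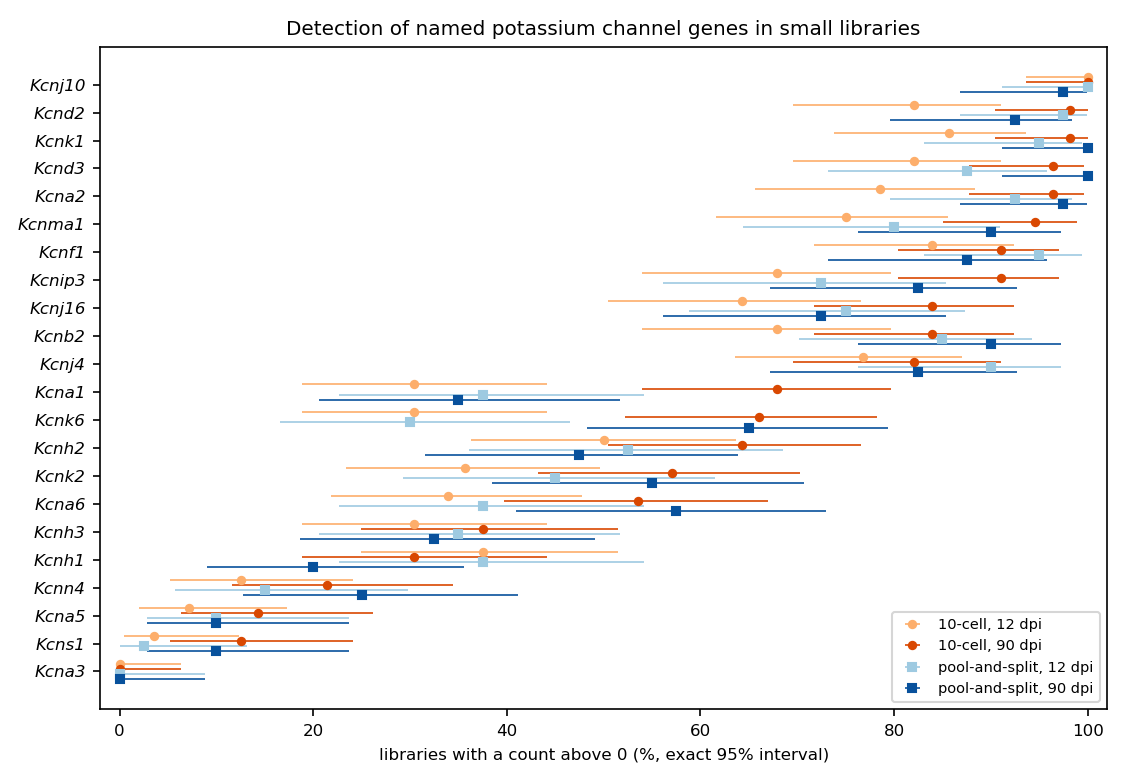
Share in percent of libraries with a count above 0 for 22 members in the 4 groups of small libraries, with exact 95% intervals. Kcnj10 lies at or near 100% in all 4 groups, and Kcna3 lies at 0 in all 4.

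Libraries of 1 set (time, sex and the number that ends the label) were summed, giving 4 sets per time for each kind, because the labels do not say whether a set is 1 animal. The p-values then measure the spread between sets. In 10-cell sets edgeR called 0 of 65 tested members between 90 and 12 dpi and 0% of all genes, with 4 members at an unadjusted p under 0.05. DESeq2 called 1 member of 65, where it called 1.88% of all genes. That member was Kcnj3, chosen after its values were seen, at 156, 205, 216 and 223 CPM in the 4 sets of 12 dpi and 66.7, 84.0, 65.0 and 47.7 CPM in those of 90 dpi. The sets did not overlap, and the log2 difference was -1.61 ± 0.321 (edgeR, unadjusted p = 6.6e-04, adjusted p = 0.515; DESeq2 -1.63, adjusted p = 0.00235). The other 3 were Kcnf1 (-1.17), Kcnip3 (1.59) and Kcnj12 (3.20). In pool-and-split sets edgeR called 0 of 57 members and 0% of all genes, with Kcnq5 (3.11) and Kcnk6 (2.74) at an unadjusted p under 0.05. DESeq2 called 1 member of 55, Kcnn4 (6.16, adjusted p = 0.0221), where it called 4.06% of all genes. Kcnn4 was 0, 22.1, 0 and 3.92 CPM in the 4 sets of 12 dpi and 48.9, 45.3, 2.28 and 5.12 CPM in those of 90 dpi. These sets overlapped, and edgeR gave 5.57 ± 3.65 (unadjusted p = 0.158, adjusted p = 0.742). Kcnj3 in these sets was 12.1, 98.5, 228 and 151 CPM at 12 dpi and 42.8, 70.5, 136 and 39.8 CPM at 90 dpi, with overlap. In both kinds of sets the share of all genes at an unadjusted p under 0.05 was not counted.

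The design also asked which genes vary more among 10-cell libraries, which hold differences between cells, than among pool-and-split libraries, which hold technical variation. The measure was the absolute deviation of log2(CPM + 1) from the median of set and kind. Single libraries were the unit of this test, 56 against 40 at each time, and libraries of 1 set may share an animal, so its p-values can be too small. At 12 dpi limma called 0 of 28 tested members, where 0.0252% of all genes were called, and 4 members had an unadjusted p under 0.05, all with the larger deviation in 10-cell libraries. Kcnj3 had the largest difference, with a mean deviation of 3.12 in 10-cell and 2.10 in pool-and-split libraries (difference 1.03 ± 0.402, unadjusted p = 0.0122, adjusted p = 0.42). Kcnc1 (0.94), Kcnq3 (0.74) and Kcnd2 (0.60) were the others. The median difference at 12 dpi was 0.154 over the tested members and 0.163 over all tested genes. A larger deviation in 10-cell libraries was thus the direction of genes in general, not of these members alone. At 90 dpi limma called 0 of 38, where 0.701% of all genes were called, and 3 members had an unadjusted p under 0.05: Kcnj4 (0.66) and Kcnb2 (0.71) deviated more among 10-cell libraries and Kcnip1 (-0.87, adjusted p = 0.223) less. Kcnj10, present in nearly every library, deviated by 1.59 and 1.37 at 12 dpi and by 1.12 and 1.5 at 90 dpi in 10-cell and pool-and-split libraries. For the members at an unadjusted p under 0.05, the share of all genes was not counted at either time.

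**Figure D5:**
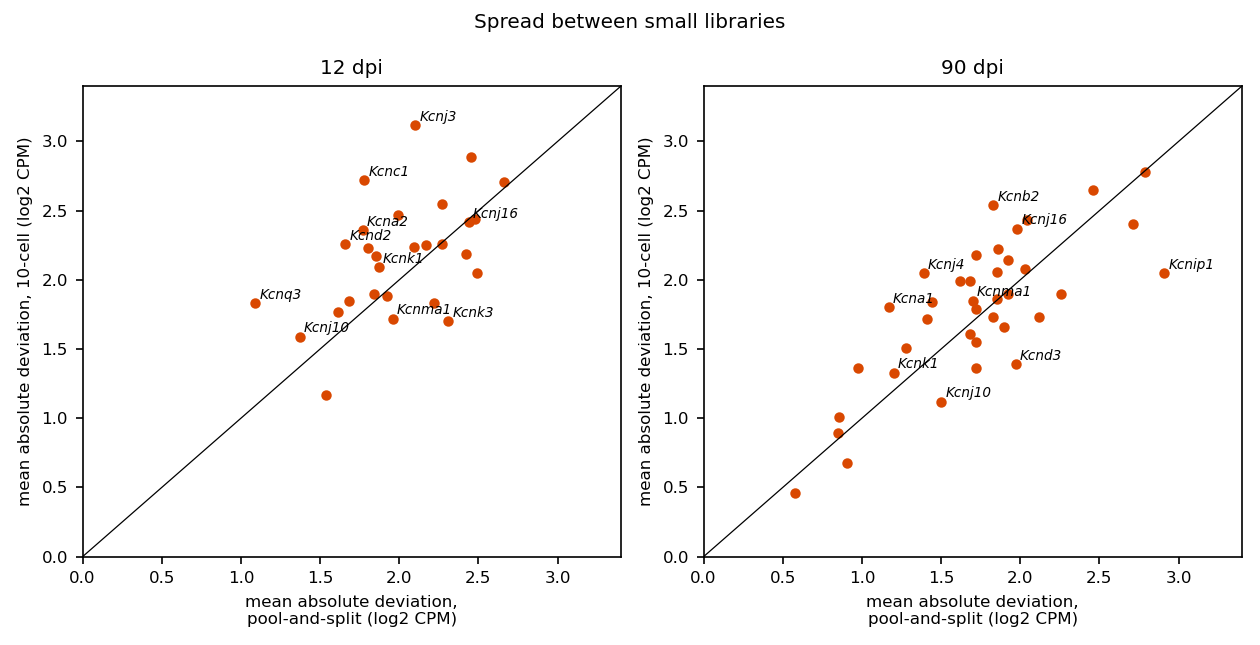
Mean absolute deviation of log2(CPM + 1) of the tested members in 10-cell libraries (y axis) against pool-and-split libraries (x axis), at 12 dpi (28 members) and 90 dpi (38 members), with the line of equal deviation. Kcnj3 at 12 dpi lies above the line at 3.12 against 2.10, and no member was called at either time.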

How the data were processed

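Expected counts per gene for 240 libraries (48 bulk, 192 small) were deposited by the authors in 1 table, made with RSEM and Bowtie2 on build GRCm38 per the submitters' processing notes, whose versions are not given in the sources used here; 13.6% of the values were not whole. The expected counts were rounded, and the 11 pairs of libraries from 1 animal were summed. Gene coordinates came with the table and were the same as in GENCODE M21 for 81 of 93 members, and exon lengths were the merged exons of GENCODE M21. Genes were kept with filterByExpr (minimum count 10, total 15), scaled by TMM and tested with edgeR 4.0.16 (R 4.3.3) quasi-likelihood tests with sex as covariate, all 37 animals in 1 fit. Benjamini-Hochberg adjustment ran over all genes tested, with a threshold of 0.05. DESeq2 1.42.0 was an alternative. Small libraries were tested as summed sets, and spread with limma 3.58.1 on deviations of log2(CPM + 1) for genes counted in at least 50% of libraries. The tests were checked on simulated data. The replicate is the animal in bulk tests and the set in tests between times, while the spread tests take single libraries as units with the set as covariate. The columns of bulk libraries were mapped to animals by their titles, and sex enters the fit as labelled.

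Members, roles and lists were chosen with earlier results of these data known. Members named were a list of 16, plus, for each tumour comparison, the 5 largest called rises and falls with an average expression above the median of all genes tested, and, for every other comparison, all called members up to 4 per direction. Members outside this rule that are given with values were chosen after those values were seen. Of the list of other potassium genes, the 3 largest called changes per direction were named. Promoters came from a RefSeq table of build GRCm38.p6. Alternatives were DESeq2, RLE size factors, other filters, a fit with sex left out, the deeper library in place of the sum, fits to the compared groups alone, each animal or set left out, a replicate block for the sets, other pseudocounts and centres for the spread, and, added after seeing the data, leaving out 2 animals of 90 dpi together and the neuron level as a covariate. Some named members and genes of the lists are not reported here; they stay in the counts.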

Additional observations from a re-analysis of the deposited data

Results flagged for a closer look

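Of 137 groups of 5 to 7 animals in which a named member was examined, 16 held 1 animal far from the others by Dixon's criterion, where chance gives about 1 in 20. Kcna3 was at 0 CPM in the wild-type animal of 90 dpi with the fewest counts of all (next 3.63), and Kcna5 was at 0 CPM in the same animal (next 3.08). Kcnma1 was 237 CPM in that animal (next 398), while its Kcnh2 was high at 37.9 CPM (next 33.5). In that library of 93700 counts, 1 count was about 9.48 CPM, more than the next values of Kcna3 and Kcna5, so these 4 flags rest on few counts. The CKO animal of 90 dpi with the highest sum of neuron markers held Kcna5 at 0.978 CPM (next 3.53) and Kcnb2 at 418 CPM (next 610), with Kcnma1 high at 658 CPM (next 472). A single CKO animal of 12 dpi held Kcnb2 at 436 CPM (next 592) and Kcnk1 at 60.9 CPM (next 81.9). In the other animals Kcnh3 was low at 52.3 CPM in wild type of 12 dpi (next 71.0), and Kcnd3 was low at 114 CPM in wild type of 150 dpi (next 158). Among the tumours Kcnk1 was low at 14.5 CPM in the tumour with the highest Kcna1 (next 30.7), and Kcnk6 was low at 1.21 CPM in another (next 3.46). Kcna1 was high at 130 CPM in a CKO animal of 90 dpi (next 95.6), and Kcnma1 was high at 430 CPM in a wild-type animal of 12 dpi (next 365). Kcns1 was 0.290 CPM in the 1 wild-type animal of 150 dpi with a count (next 0).

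For the named members given next, the genotype effect at 150 dpi differed from that at 90 dpi by edgeR's test of the difference itself. The log2 difference of the effects was -6.90 for Kcnh3, -5.86 for Kcnj4, -5.68 for Kcnb2, -5.46 for Kcnh1 and -5.34 for Kcnf1. It was -2.11 for Kcnma1, -2.01 for Kcnd2, -1.92 for Kcna5, -1.52 for Kcnh2 and -1.26 for Kcnk1. It was higher at 0.72 for Kcnj10, 1.32 for Kcna6, 2.30 for Kcnk6, 6.23 for Kcns1 and 9.77 for Kcnn4. The value of Kcnn4 is a fitted one, with wild-type animals of 150 dpi all at 0, and is no bound. The neuron marker sum differed between tumours and all other animals in the same comparison, and its part in these differences was not tested.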

How the results depend on the processing

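With DESeq2 the members called in the tumour comparisons were 56 (12 higher, 44 lower) against wild type and 58 (10, 48) against CKO, and with RLE size factors the counts were the same. DESeq2 called 49.3% and 53.9% of all genes there, and RLE 47.7% and 51.7%. Of all called genes, 62.2% and 63.6% were higher with DESeq2 and 62.1% and 63.5% with RLE, against 52.6% and 53.8% with edgeR and TMM. Leaving out 1 animal gave 53 to 57, 56 to 59 and 47 to 50 called members against wild type, against CKO and for the change of the genotype effect, and 0 to 0 elsewhere. With the neuron level as a covariate 15 were called in each tumour comparison, where 6.88% (against wild type) and 7.71% (against CKO) of all genes were called. Signs turned against wild type for Kcna3 (0.36), Kcna6 (-0.88), Kcnd2 (1.01), Kcnh2 (0.30) and Kcnj10 (-0.0502), and against CKO for Kcna6 (-1.13), Kcnd2 (1.49) and Kcnj10 (-0.0426). The neuron level and the tumour group cannot be told apart. Kcnd3 turned sign against wild type with DESeq2 (0.12), RLE (0.12), a mean of at least 10 CPM (0.0702) and the compared groups alone (0.0147), and for the change of effect in the first 3 (0.0639, 0.0627 and 0.0264). Leaving out 1 animal, Kcnd3 ranged from -0.23 to 0.14 against wild type and from -0.28 to 0.0724 for the change of effect, and Kcna2 against CKO from -0.0103 to 0.28. Kcna3 against CKO was lost with the deepest library of each animal (-0.80, adjusted p = 0.115). Kcnip3 against CKO passed with DESeq2 (0.54, adjusted p = 0.013), RLE (0.54, 0.0186), a mean of at least 10 CPM (0.50, 0.0257), the deepest library of each animal (0.54, 0.0225), without the CKO animal with the highest neuron sum (0.49, 0.0376) and without that and the shallowest animal (0.49, 0.0341). The change of the genotype effect of Kcnk2 passed with DESeq2 (0.99, adjusted p = 0.0245), RLE (0.99, 0.0289) and a mean of at least 10 CPM (0.95, 0.0297). It also passed with the deepest library of each animal (0.92, 0.0326), without the same 2 animals (1.07, 0.0147) and in 5 fits that left out 1 animal. Kcnj16 against CKO passed with DESeq2 (0.54, 0.0163), RLE (0.54, 0.0208), a mean of at least 10 CPM (0.50, 0.0311) and in 2 fits that left out 1 animal. Kcnd3 against CKO passed without the tumour with the highest Kcnn4 (-0.49, adjusted p = 0.0256). Counts of 0 became 1 for wild type over time with the compared groups alone, where 2.08% of all genes were called. They became 1 for 10-cell and 1 for pool-and-split sets with DESeq2, which called 1.88% and 4.06% of all genes. For the spread at 12 dpi with deviations from the mean 2 members were called (Kcnj3 and Kcnc1), where 3.85% of all genes were called. Over the alternatives other than leaving out 1 animal or set, 530 values kept their direction and side of the threshold, 20 lost their call, 17 gained one and 15 turned sign. Values that turned sign were counted as such whatever became of their call. The 20 thus leave out calls lost with a turned sign, such as that of Kcna6 with the neuron level as a covariate. Most of the 20 came from that fit. The cause of these changes was not tested. With the replicate block the sets gave 0 called members in both kinds. Correlations between the deviations of sets of the same sex and number at the 2 times ran from -0.0393 to 0.0184. With 4 sets per time, they cannot show what such sets share beyond sex and number. Without the shallowest wild-type animal and the CKO animal with the highest neuron sum, both of 90 dpi and left out after seeing the data, 56, 57 and 49 members were called. The shares of all genes called were 47%, 47.5% and 29.3%. In the small libraries 26 to 38 of 93 members had a count in more than 50% of the libraries of a group.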
